A study of Mus musculus with 24 samples.

Results

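Nos2, Nox1, Cybb and Ncf4 are the 4 genes of nitric oxide and superoxide production followed here, out of 547 genes of an immune panel. They were picked by name with the results of these data known, because Nos2 and Nox1 showed the largest falls after antibiotic exposure, and all 4 were found in the table. Their differences between treated and Control mice were therefore chosen by that fall and are given as a description, without a test of their own. What the choice did not use, namely sex, variation from mouse to mouse within groups, and other genes, was tested.

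Whether 1 macrolide course in early life has effects on the host like those of repeated courses was the question of the study, and the tissue was the terminal ileum, the end of the small bowel, taken from 24 C57BL/6 mice at week 7. Control mice (4 male, 3 female) drank non-acidified water without drug. PAT1 mice (pulsed antibiotic treatment; 4 male, 3 female) were exposed to tylosin, a macrolide, in a single course during nursing, through the treated dam. PAT3 mice (4 male, 6 female) had that course and later ones, 3 in all. Groups follow the sample labels, from which a legend of the study differs in the sizes of PAT1 and PAT3, and whether a mouse is labelled with the wrong treated group was not tested. Whole litters were allotted to a treatment and weaned mice were housed by sex and treatment, so that litter and cage cannot be told apart from treatment, nor cage from sex. Samples held between 171671 and 782392 counts in all. Values are deposited log2 normalized counts or, where named so, normalized counts. The median of all genes differed from Control by -0.14 in PAT1 and -0.19 in PAT3, and log2 differences below are relative to the deposited scaling and not to that median. In bulk tissue, fewer cells of a type and less RNA per cell cannot be told apart, and since each gene has its own probe, levels are compared between mice and not between genes.

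Nitric oxide synthases make nitric oxide from arginine, and the inducible form encoded by Nos2 is switched on by interferons, microbial products and inflammatory cytokines, in epithelial cells as well as in macrophages. NADPH oxidases move electrons across a membrane onto oxygen to give superoxide. Nox1 encodes the catalytic subunit of an oxidase of the gut epithelium, Cybb the catalytic subunit of the phagocyte oxidase, and Ncf4 a cytosolic subunit that joins the phagocyte enzyme when it is activated.

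The promoter windows of the NADPH oxidase catalytic subunits Nox1 and Cybb, which are both X-linked, are shown because they are the catalytic subunits of the epithelial and the phagocyte oxidase compared below. Promoter windows (RefSeq, build GRCm38.p6) were at hand for 2 of the 4 genes, and none for Nos2 or Ncf4. Each window spans 250 bases before to 50 after the start of the gene, on the minus strand, at chrX:134111805-134112104 for Nox1 and chrX:9469275-9469574 for Cybb. Capitals mark matches, on either strand, to the motifs named after the sequences.
Nox1: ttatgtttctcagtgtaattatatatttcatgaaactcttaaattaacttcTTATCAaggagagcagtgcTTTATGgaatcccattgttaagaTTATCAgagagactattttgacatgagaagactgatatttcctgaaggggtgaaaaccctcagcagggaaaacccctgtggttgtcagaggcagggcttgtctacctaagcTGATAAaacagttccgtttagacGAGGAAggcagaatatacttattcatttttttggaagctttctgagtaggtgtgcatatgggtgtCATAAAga
Cybb: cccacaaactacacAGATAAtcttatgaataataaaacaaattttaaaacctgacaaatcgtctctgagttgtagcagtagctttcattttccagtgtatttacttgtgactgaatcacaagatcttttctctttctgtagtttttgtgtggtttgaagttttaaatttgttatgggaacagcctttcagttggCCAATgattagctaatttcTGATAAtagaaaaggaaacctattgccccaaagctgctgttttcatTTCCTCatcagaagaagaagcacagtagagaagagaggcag

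Letter patterns that GATA factors, PU.1, CCAAT-binding proteins and the intestinal CDX factors are known to bind, and that of NF-κB, were among those searched. NGATAA (GATA) matched at 3 places in the Nox1 window and 2 in the Cybb window, against 25.3% of 32851 promoter windows that held it at all. GAGGAA (PU.1) matched at 1 place in each, with 28.3% of all windows holding it. TTTATG (CDX) matched at 2 places in the Nox1 window and nowhere in that of Cybb (11.9% of all windows), whereas CCAAT was found in the Cybb window alone (37.4% of all windows). Neither window held GGANTTTCC (NF-κB; 1.25% of windows). Matches to different motifs did not overlap. These matches describe letters and not binding.

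Nos2 was the gene with the largest fall of the panel in both treated groups. In normalized counts, the 7 Control mice ranged from 254 to 1077, with a median of 816. The 7 PAT1 mice ranged from 74.4 to 235 (median 118), and the 10 PAT3 mice from 52.9 to 140 (median 70.8). Every treated mouse thus lay below every Control mouse. Control replicate 4 was the lowest Control at 254, and PAT1 replicate 4 the highest treated mouse at 235. On the log2 scale the Control mean of Nos2 was 9.31 ± 0.72 (SD, n = 7), that of PAT1 6.88 ± 0.53 (SD, n = 7) and that of PAT3 6.27 ± 0.46 (SD, n = 10). The log2 fold change was -2.43 in PAT1 (SE 0.29, 95% interval -3.02 to -1.84), which is 5.39-fold lower, and -3.05 in PAT3 (SE 0.26, 95% interval -3.59 to -2.50), which is 8.26-fold lower. Among all genes, 6.22% had no overlap between PAT1 and Control and 9.32% none between PAT3 and Control. PAT3 was lower than PAT1 by a log2 difference of -0.62 (SE 0.26, 95% interval -1.16 to -0.07), and the 2 groups overlapped, with 7 of 10 PAT3 mice below the lowest PAT1 mouse. The lowest Nos2 values rested on few counts, 30 in PAT1 replicate 1 and 31 in PAT3 replicate 7, with counting errors of 18.3% and 18.0%.

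Nox1 was also lower in treated mice, but more so in PAT1 than in PAT3. Control mice ranged from 258 to 693 normalized counts (median 518). PAT1 mice ranged from 41.9 to 281 (median 96.7) and PAT3 mice from 56.8 to 381 (median 188). Of the treated mice, 6 of 7 in PAT1 and 6 of 10 in PAT3 lay below the lowest Control, so that both groups overlapped with Control. The log2 mean was 8.88 ± 0.52 (SD, n = 7) for Control mice, 6.60 ± 0.96 (SD, n = 7) for PAT1 mice and 7.54 ± 0.86 (SD, n = 10) for PAT3 mice. The log2 fold change was -2.28 in PAT1 (SE 0.41, 95% interval -3.11 to -1.44) and -1.34 in PAT3 (SE 0.37, 95% interval -2.11 to -0.57), or 4.85-fold and 2.53-fold lower. PAT3 was higher than PAT1 by 0.94 (SE 0.37, 95% interval 0.17 to 1.71). By the size of the fall Nox1 came after Nos2 alone in PAT1, with the chemokine gene Ccl8 next at -1.75, and stood at rank 23 in PAT3. The mouse with the lowest Nos2 among Controls, replicate 4, had the highest Nox1 of all 24 mice, at 693.

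The phagocyte oxidase genes showed no such gap. Cybb ranged from 212 to 411 normalized counts in Control (median 262), from 215 to 423 in PAT1 (median 289) and from 179 to 322 in PAT3 (median 253), and all groups overlapped. Its log2 means were 8.11 ± 0.35 (SD, n = 7), 8.18 ± 0.32 (SD, n = 7) and 7.98 ± 0.27 (SD, n = 10). The log2 difference from Control was 0.06 in PAT1 (95% interval -0.29 to 0.41) and -0.13 in PAT3 (95% interval -0.46 to 0.19), which turned to 0.06 in PAT3 after re-centring each mouse on its median. 

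Ncf4 ranged from 103 to 192 normalized counts in Control (median 133), from 87.6 to 237 in PAT1 (median 159) and from 73.9 to 151 in PAT3 (median 101). PAT3 mice were the lowest, with 5 of 10 below the lowest Control, though the groups overlapped. The log2 means were 7.12 ± 0.29 (SD, n = 7), 7.16 ± 0.50 (SD, n = 7) and 6.67 ± 0.31 (SD, n = 10), and the log2 difference from Control was 0.05 in PAT1 (95% interval -0.36 to 0.45) and -0.45 in PAT3 (95% interval -0.82 to -0.07). The PAT3 difference was smaller under other settings, at -0.25 (SE 0.15) after re-centring on the median, -0.28 (SE 0.15) after quantile normalization and -0.28 with the mean of the B cell markers as a covariate. The summed normalized counts of the 9 B cell markers ranged from 269 to 906 in Control, from 184 to 4832 in PAT1 and from 161 to 417 in PAT3.

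In the fit over all genes (limma), 18.5% of the panel passed an adjusted p of 0.05 in PAT1 and 31.8% in PAT3. The 4 genes were selected on these same contrasts, so that their own count, 2 of 4 in each group (Nos2 and Nox1), is given beside these shares as a description only, and nothing is read from it.

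**Figure D1:**
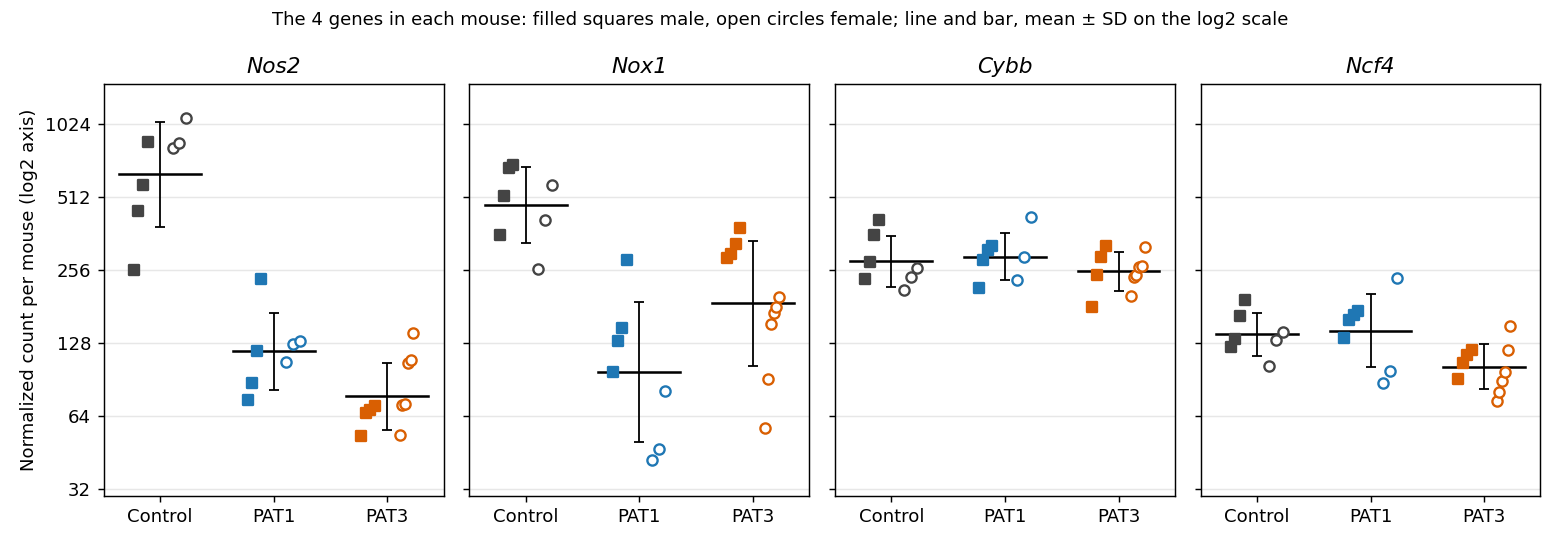
Normalized counts of Nos2, Nox1, Cybb and Ncf4 in each of 24 mice (vertical axis on a log2 scale), by treatment group and sex; the line and bar give the mean and SD of the log2 values. Nos2 of all treated mice lies below 254, the lowest Control, and in Nox1 the males (filled squares) of PAT1 and PAT3 lie above the females (open circles).

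Markers of cell types present in the tissue were read beside these genes, with 18.5% and 31.8% of all genes called in PAT1 and PAT3 and medians of 0.01 and 0.03 as the background. Of 13 phagocyte markers, 2 (15.4%) had fallen in each treated group and none had risen, with a median log2 difference of -0.18 and -0.19. Their sums ranged from 2536 to 3707 normalized counts in Control, from 2061 to 2907 in PAT1 and from 2229 to 3200 in PAT3. Of 7 epithelial genes, 2 were higher and 2 lower in each treated group (57.1%), with medians of 0.51 and 0.41.

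T cell markers had the lowest median of these lists in both treated groups. In PAT1, 2 of 8 (25%) were called, both lower, and in PAT3, 7 of 8 (87.5%), all lower, with medians of -0.44 and -0.97. Their summed normalized counts had a median of 938 in Control (777 to 986), 556 in PAT1 (at most 884) and 399 in PAT3 (314 to 599). B cell markers had medians of 0.78 in PAT1 and -0.67 in PAT3, and 1 of 9 was called (11.1%), lower in PAT3. Of 5 neutrophil markers 1, S100a9, was called, lower in PAT3, with medians of -0.24 and -0.59 and sums of 67.1 to 117 in Control, 53.9 to 113 in PAT1 and 33.8 to 87.4 in PAT3. These markers held few counts, with medians between 6 (Cxcr2, at 0 in at least 1 mouse) and 18 (Csf3r). The part of these cell types in the differences of Nos2, Nox1, Ncf4 and the related genes was not tested.

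Nox1 differed between the sexes, a comparison that the choice of genes did not use. In PAT1, males ranged from 96.7 to 281 normalized counts and females from 41.9 to 80.8. In PAT3, males ranged from 285 to 381 and females from 56.8 to 197. In neither treated group did the sexes overlap, whereas in Control they did, at 355 to 693 in males and 258 to 574 in females. The same lack of overlap in both treated groups, in the same direction each time, was met by 0.366% of the panel, namely Nox1 and the survival gene Bcl2, which was higher in females. Before scaling, Nox1 counts of the sexes overlapped in PAT1, at 39 to 313 in males and 42 to 84 in females. PAT1 replicates 1, 2 and 3, all male, held 171671, 389743 and 294135 counts in all. The PAT1 females held 543394, 574243 and 782392, and the male PAT1 replicate 4 held 631905. The 39 counts of PAT1 replicate 1 had a counting error of 16.0%.

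With treatment as a covariate, the female minus male log2 difference of Nox1 was -1.11 (SE 0.23, 95% interval -1.58 to -0.64, limma adjusted p = 0.0267), which is 2.15-fold higher in males (95% interval 1.56 to 2.98). It was one of only 2 genes of 547 that passed (0.366%), and the other was Ccl8, a chemokine gene, at -1.05 (limma adjusted p = 0.0267). Permuting sex within groups gave an exact two-sided p of 0.000128 for Nox1 over 257250 arrangements. Within groups, the female minus male difference was -0.46 in Control (exact permutation p = 0.286), -1.48 in PAT1 (exact permutation p = 0.0571) and -1.30 in PAT3 (exact permutation p = 0.00952). These p-values rested on few arrangements, 35 in Control, 35 in PAT1 and 210 in PAT3. The call depended on single mice and on the scaling. The adjusted p was 0.0584 without Control replicate 4, 0.0776 without Control replicate 5, 0.0765 without PAT1 replicate 5 and 0.0525 after quantile normalization, with the difference between -1.22 and -1.01 when any 1 mouse was left out. Sex was taken from the labels and was not checked in the data, and whether the sexes were run together on the instrument was not known here.

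Nos2 was higher in females by 0.90 in Control (SE 0.37) and 0.45 in PAT3 (SE 0.26). In PAT1 the difference of 0.06 was small beside its spread (SE 0.39, 95% interval -0.83 to 0.95). With treatment as a covariate the difference was 0.47 (SE 0.21, 95% interval 0.04 to 0.89). It did not pass over all genes (limma adjusted p = 0.390, exact permutation p within groups = 0.0432). The sexes overlapped in Nos2 in every group. For Cybb the female minus male difference was -0.08 (95% interval -0.35 to 0.19, limma adjusted p = 0.867) and for Ncf4 it was -0.22 (95% interval -0.53 to 0.09, limma adjusted p = 0.670). None of the 13 phagocyte markers or 7 epithelial genes passed the test between sexes, which only 0.366% of all genes passed. Their median female minus male differences were -0.18 and 0.13, against 0.01 over all genes.

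**Figure D2:**
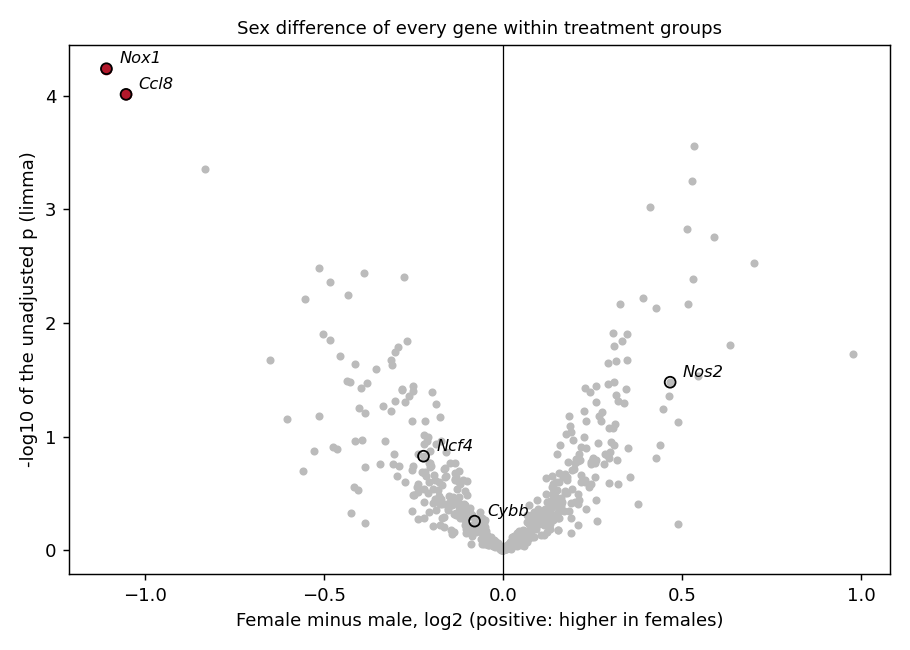
Female minus male log2 difference of each of 547 genes with treatment as a covariate (horizontal axis) against the unadjusted limma p on a -log10 scale (vertical axis); red points passed an adjusted p of 0.05 and circles mark the named genes. Nox1 (-1.11) and Ccl8 (-1.05) stand apart at the upper left, and Nos2, Cybb and Ncf4 lie among the other genes.

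As PAT3 held more females than the other groups, the Nox1 difference between treatments was also read within each sex. In males it was -1.84 in PAT1 (95% interval -2.50 to -1.18) and -0.76 in PAT3 (95% interval -1.41 to -0.10), and in females -2.86 (95% interval -3.88 to -1.84) and -1.60 (95% interval -2.48 to -0.72). In males, normalized counts ranged from 355 to 693 in Control, 96.7 to 281 in PAT1 and 285 to 381 in PAT3. In females they ranged from 258 to 574 in Control, 41.9 to 80.8 in PAT1 and 56.8 to 197 in PAT3. How many other genes lacked overlap between treatments within a sex was not counted. With sex as a covariate the PAT3 difference was -1.15 (SE 0.27) and PAT3 was higher than PAT1 by 1.13 (SE 0.27). For Nos2 the values within males were -2.07 in PAT1 and -2.93 in PAT3, and within females -2.91 and -3.38.

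Whether the treatment difference itself depended on sex was tested by an interaction term. No member passed (limma F-test over both treatments, adjusted p = 0.462 for Nox1, 0.577 for Nos2, 0.555 for Cybb and 0.915 for Ncf4). Over the panel, 0 of 547 genes (0%) passed in PAT1 and 0 (0%) in PAT3 by limma, with 47 and 27 genes at an unadjusted p under 0.05. For Nox1 the change in females minus that in males was -1.02 in PAT1 (95% interval -2.21 to 0.16) and -0.84 in PAT3 (95% interval -1.94 to 0.25), intervals that hold 0 but reach far below it.

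Covariation among the genes was examined on deviations from the group mean, which leave the treatment differences out. Cybb and Ncf4, the subunits of the same oxidase, varied together from mouse to mouse (Pearson r = 0.71, permutation p = 0.00025, adjusted p = 0.0015 over 6 pairs, n = 24; Spearman rho = 0.73, permutation p = 0.00013, adjusted p = 0.00078). Among Control mice the coefficient was 0.89, among PAT1 mice 0.73 and among PAT3 mice 0.59. Without the 2 mice farthest from the median of Cybb, PAT1 replicate 7 and Control replicate 2, it was 0.64. After re-centring each mouse on its median it was 0.47 and did not pass (permutation adjusted p = 0.0953). The mean of all phagocyte markers correlated with Cybb and Ncf4 at 0.40 and 0.40. The relation was not particular to this pair, since other genes of the panel lay closer to each. Examples were Csf2rb with Cybb (0.82) and Ly86 with Ncf4 (0.88).

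Nos2 and Nox1, which were both lower in treated mice, showed no correlation that passed within groups. Their coefficient was -0.17 (permutation p = 0.424, adjusted p = 0.542; Spearman rho = -0.32, permutation p = 0.136, adjusted p = 0.343), with -0.76 in Control, 0.41 in PAT1 and -0.32 in PAT3. Without PAT1 replicate 4 and Control replicate 4, the 2 mice farthest from the median of Nos2, it was -0.41. The other 4 pairs had coefficients between -0.32 and 0.04, and none passed.

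**Figure D3:**
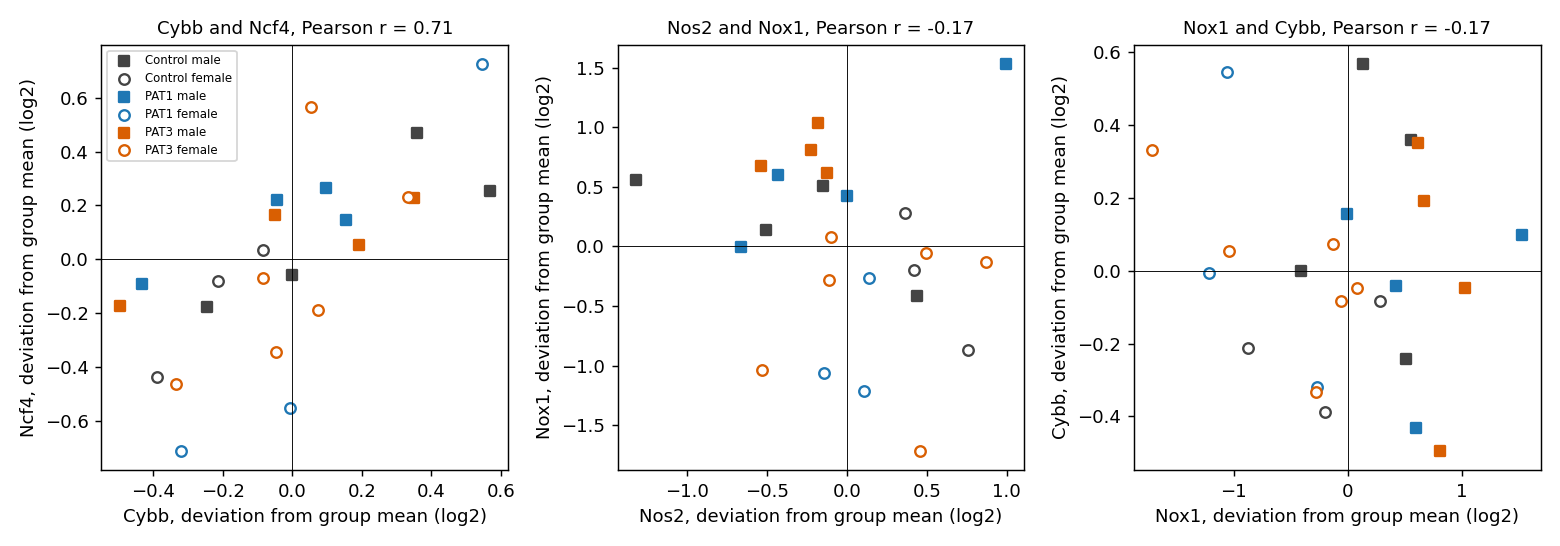
Deviation of each mouse from the log2 mean of its group for Cybb and Ncf4 (left), Nos2 and Nox1 (middle) and Nox1 and Cybb (right), in colours by group, with filled squares for males and open circles for females. Cybb and Ncf4 rise together (r = 0.71), whereas the coefficient of Nos2 and Nox1 was -0.17, and Nox1 deviations of PAT1 and PAT3 males are mostly above 0.

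The mean of each of 7 lists of related genes and markers was set against each of the 4 genes in the same way, 28 relations that were added after the data were seen. The epithelial list was itself in part written after an earlier look at these data, so that its p-values are not independent support. Ncf4 followed the B cell markers (Pearson r = 0.70, permutation p = 0.00143, adjusted p = 0.0295; Spearman rho = 0.63, permutation p = 0.00396, adjusted p = 0.0554, n = 24) and opposed the epithelial genes (Pearson r = -0.61, permutation p = 0.00211, adjusted p = 0.0295; Spearman rho = -0.67, permutation p = 0.00064, adjusted p = 0.0179). Without the 2 mice farthest from the median of each list the coefficients were 0.56 and -0.68. The B cell relation, at -0.04 among Control, 0.90 among PAT1 and 0.78 among PAT3 mice, did not pass after quantile normalization (0.52, permutation adjusted p = 0.168) or with deviations taken within sex as well (0.72, permutation adjusted p = 0.0585). It did not pass either without PAT1 replicate 5, 6 or 7 or PAT3 replicate 7, with r from 0.59 to 0.67, and the epithelial relation did not without Control replicate 4 or 7, PAT1 replicate 5 or 6 or PAT3 replicate 7, with r from -0.60 to -0.56. For Nos2 the largest coefficients were -0.58 with the phagocyte markers (Spearman rho = -0.54) and 0.54 with the epithelial genes (Spearman rho = 0.53), neither of which passed (permutation adjusted p = 0.0584 and 0.0633). Both did under some settings, the phagocyte relation without PAT1 replicate 4 or 7 or PAT3 replicate 2, 5 or 9 (r from -0.71 to -0.59), and the epithelial relation without PAT3 replicate 2 (0.57) or 5 (0.72) or after re-centring on the median (0.60, permutation adjusted p = 0.0227). Without the 2 mice farthest from the median of each list, the phagocyte coefficient with Nos2 was -0.37 and the epithelial one 0.70. Among Control, PAT1 and PAT3 mice the phagocyte coefficient was -0.89, -0.49 and -0.24, and the epithelial one 0.83, 0.71 and 0.08.

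The coefficient of Cybb and the epithelial genes was -0.55 (Spearman rho = -0.56, permutation adjusted p = 0.0715), which lay just over the threshold (permutation adjusted p = 0.0633). It passed after quantile normalization (-0.66, permutation adjusted p = 0.00812), re-centring (-0.67, permutation adjusted p = 0.00887) and removal of the size factor (-0.72, permutation adjusted p = 0.00266), with deviations taken within sex as well (-0.58, permutation adjusted p = 0.0354), and without PAT1 replicate 4 or 7 or PAT3 replicate 2. Relations of Cybb (0.62) and Ncf4 (0.66) with the phagocyte markers passed only without PAT1 replicate 7. The inducers of Nos2 had a coefficient of -0.08 with Nos2 itself (permutation adjusted p = 0.746) and of 0.51 with Nox1 (Spearman rho = 0.44; permutation adjusted p = 0.108). The relation with Nox1 was 0.46 among Control, -0.09 among PAT1 and 0.88 among PAT3 mice. It passed without PAT1 replicate 4 (0.65, permutation adjusted p = 0.0265), and without PAT3 replicates 5 and 7, the 2 mice farthest from the median of the list, it was 0.15. With the inducers, Cybb (-0.61) and Ncf4 (-0.63) passed after re-centring alone.

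The genes whose mouse-to-mouse variation was most like each member were ranked by Pearson r of deviations from the group mean, among 425 genes over 24 mice, as a description. For Nos2 they were C4bp (0.65), Tgfbi (0.64), Maf (0.61), Irf8 (0.57) and C2 (0.56). For Nox1 they were Casp1 (0.64), Ptpn2 (0.62), Psmc2 (0.61), Il7 (0.59) and Bid (0.56), all of which were weaker when deviations were taken within sex as well, Il7 most of all at 0.27. For Cybb they were Csf2rb (0.82), Tgfb1 (0.80), Il16 (0.78), Ly86 (0.74) and Ptprc (0.73), and for Ncf4 they were Ly86 (0.88), Arhgdib (0.83), Cxcl13 (0.83), Cd86 (0.82) and Icos (0.82). Ly86, which encodes a partner of a Toll-like receptor relative on B cells and myeloid cells, was on both of the last lists. All points share the scaling of their mouse, and after re-centring on the median the coefficient of Cybb and Ptprc, for example, was 0.44. The likeness to Nox1 was not seen in Control mice. There the coefficients of Casp1, Ptpn2, Psmc2, Il7 and Bid with Nox1 were -0.23, 0.17, -0.37, -0.04 and -0.16. In the same order they were 0.67, 0.38, 0.55, 0.52 and 0.85 among PAT1 mice and 0.93, 0.92, 0.92, 0.79 and 0.70 among PAT3 mice.

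Other genes around these enzymes were taken from 4 fixed lists, of which 38 genes besides the members were on the panel. In PAT1, 9 of 38 passed (2 higher, 7 lower; 23.7%, against 18.5% of all genes), and in PAT3, 15 of 38 (6 higher, 9 lower; 39.5%, against 31.8%). The direction of the PAT3 calls depended on the scaling, with 14 higher and 8 lower once each mouse was re-centred on its median and 8 higher and 10 lower after quantile normalization, and in PAT1 re-centring gave 2 higher and 4 lower. The median log2 difference over the 38 genes was -0.01 in both, and 0.01 and 0.03 over all genes. The lists were written with earlier results of these data known.

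Of the NADPH oxidase subunits and relatives, 3 of 14 were measured, namely Nox3, Nox4 and Prkcd. Nox4, which encodes a constitutively active oxidase, was higher in PAT3 by 0.97 (SE 0.22, limma adjusted p = 0.00154), opposite in direction to Nox1, though at a median of only 21 counts. Its PAT1 difference of 0.47 did not pass (limma adjusted p = 0.194). Prkcd, a kinase that phosphorylates cytosolic oxidase subunits, was higher in PAT3 by 0.53 (SE 0.20, limma adjusted p = 0.0467). With sex or the B cell markers as a covariate it did not pass (limma adjusted p = 0.0615 and 0.0915). The call was also lost in either sex alone and by TukeyHSD, the methods' test (adjusted p = 0.134). Without Control replicate 2, 4, 5 or 6 or PAT1 replicate 2 or 4 it also failed (limma adjusted p 0.0503 to 0.107). The same held without PAT3 replicate 1, 2, 4, 6, 8, 9 or 10 (limma adjusted p 0.0674 to 0.0764). It passed after quantile normalization and after re-centring on the median. The PAT1 difference of Prkcd was of like size, at 0.56 (SE 0.22), and did not pass (limma adjusted p = 0.0742). With sample weights the PAT1 difference passed (limma adjusted p = 0.0174). Nox3 had a median of 3 counts and did not pass in either group.

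Of the inducers of Nos2, 22 of 24 were measured, and 8 passed in each group, with 6 lower in PAT1 and 5 lower in PAT3. That was 36.4% in each, against 18.5% of all genes in PAT1 and 31.8% in PAT3. Irf1, an interferon-induced transcription factor that acts on the Nos2 gene, fell by 0.66 on the log2 scale in PAT1 (SE 0.16, limma adjusted p = 0.00371) and by 0.63 in PAT3 (SE 0.15, limma adjusted p = 0.00182). The interferon gamma receptor genes moved the other way, Ifngr1 by 0.57 and Ifngr2 by 0.96 in PAT1 (limma adjusted p = 0.0137 and 0.000614), and by 0.58 and 0.61 in PAT3 (limma adjusted p = 0.00473 and 0.00770). Ifng itself, at a median of 8 counts, was -0.15 in PAT1 and -0.55 in PAT3 (limma adjusted p = 0.732 and 0.0746).

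Among the cytokines and microbial sensors that induce Nos2, Il17a fell by 1.05 in PAT1 and 1.28 in PAT3 on the log2 scale (SE 0.27 and 0.25, limma adjusted p = 0.00567 and 0.000283), at a median of 9 counts. Il1b fell by 0.74 and 0.78 (SE 0.22 and 0.20, limma adjusted p = 0.0172 and 0.00467), and the sensor gene Tlr2 fell from a log2 mean of 6.24 in Control to 5.06 and 5.23 (limma adjusted p = 0.000355 and 0.000334). Tlr4, which encodes the sensor of lipopolysaccharide, fell by 0.59 in PAT1 (limma adjusted p = 0.00496) and was at -0.11 in PAT3 (limma adjusted p = 0.550). Rela, a subunit of NF-κB, was higher in PAT3 by 0.41 (limma adjusted p = 0.00644) and at 0.28 in PAT1 (limma adjusted p = 0.130). With each mouse re-centred on its median, Irf1, Il1b and Tlr4 did not pass in PAT1. Il1b in PAT1 also did not pass by TukeyHSD, the methods' test (adjusted p = 0.0657). Nor did it without Control replicate 2 (limma adjusted p = 0.0509) or Control replicate 4 (limma adjusted p = 0.0513).

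Of genes that restrain Nos2, Socs3 and Socs1, feedback inhibitors of cytokine signalling that are themselves induced by it, stood at -1.31 and -0.54 in PAT1 (limma adjusted p = 0.000203 and 0.0512) and at -1.54 and -0.84 in PAT3 (limma adjusted p = 1.65e-06 and 0.000877). Stat6, which carries the interleukin 4 signal, was higher in PAT3 by 0.43 (limma adjusted p = 0.0197) and at 0.32 in PAT1 (limma adjusted p = 0.152). Thus 1 of 9 measured genes of this list passed in PAT1 (11.1%, against 18.5% of all genes) and 3 of 9 in PAT3 (33.3%, against 31.8%). The PAT1 count depended on Socs1, which lay just over the threshold. Socs1 passed in PAT1 with voom, sample weights or the size factor as a covariate (limma adjusted p = 0.0362, 0.0174 and 0.00510). It did not after quantile normalization or re-centring on the median (limma adjusted p = 0.124 and 0.202). Of 4 measured redox and antimicrobial effectors none passed in PAT1, where S100a9 was at -0.67 (limma adjusted p = 0.0893), and 2 passed in PAT3 (50%). In PAT3, S100a9, a subunit of calprotectin, fell by 0.96 on the log2 scale (limma adjusted p = 0.00431, median 14.5 counts). Irgm1, an interferon-induced GTPase gene, fell by 0.52 in PAT3 (limma adjusted p = 0.0198). The Irgm1 call was lost once each mouse was re-centred on its median (-0.33, limma adjusted p = 0.144) and in males alone (-0.31, limma adjusted p = 0.377).

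**Figure D4:**
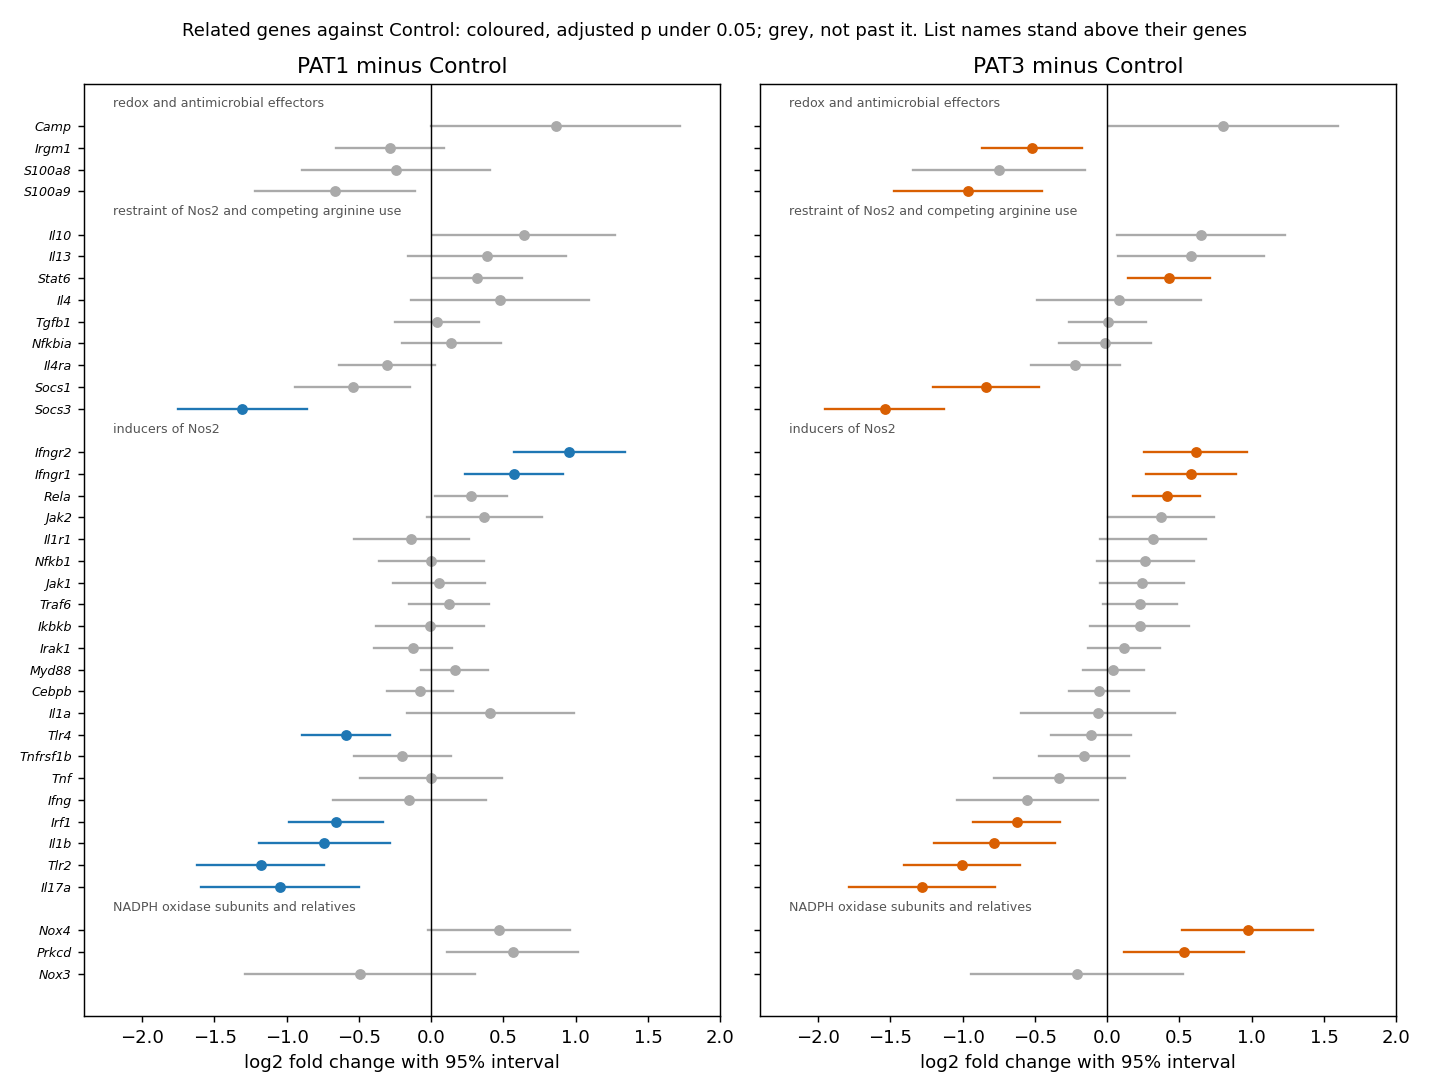
Log2 fold change with its 95% interval of the related genes in PAT1 (left) and PAT3 (right) against Control, grouped by list, with coloured points for an adjusted p under 0.05. Socs3, Tlr2 and Il17a lie below 0 and Ifngr1 and Ifngr2 above 0 in both.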

How the data were processed

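Terminal ileum RNA of 24 mice was counted with the NanoString nCounter mouse immunology panel, which counts colour-coded probes without amplification or sequencing. The authors normalized the counts with DESeq2 size factors, per the labels and methods, and deposited log2 values of 547 genes. Whole counts were recovered from all values above 0 (100% whole within 0.01 counts), and 19 values were listed at 0. No pair of 276 appeared to be 1 sample deposited again (smallest chi-square 3.98 per degree of freedom).

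Groups and sex came from the labels. The 4 genes and all lists were chosen with earlier results of these data known, and the epithelial list was in part written after an earlier look at them. Log2 values were fitted with limma 3.58.1 (lmFit and eBayes, R 4.3.3) over all 24 mice without filter or pseudocount, with Benjamini-Hochberg adjustment over 547 genes within each contrast and a threshold of 0.05. Sex was fitted with treatment as a covariate, and its interaction from 6 treatment-by-sex means. Correlations used 100000 two-sided permutations within groups (Python 3.11.15, numpy 2.4.6), adjusted over 6 pairs or 28 relations. The fits were tested on simulated data. P-values measure the spread between mice, taken as independent. Named genes were the 4 members, each listed related gene that passed in either contrast, and the 5 genes most like each member among those with a median count of at least 20. A gene of the list of Nos2 inducers that passed is counted but not reported here by name or drawn. Ccl8 and Bcl2 were named after their values were seen, as were the genes given to set a count of 0 or a list beside its values.

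Alternatives were quantile normalization, re-centring on the median, a pseudocount of 1, voom on recovered counts, sample weights, covariates (sex, size factor, B cell markers), single sexes, a filter on low counts, the methods' test (aov and TukeyHSD per gene) and leaving out each mouse.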

Additional observations from a re-analysis of the deposited data

How the results depend on the processing

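The falls of Nos2 and Nox1 kept their direction under every alternative run, between -2.65 and -2.30 for Nos2 in PAT1, -3.27 and -2.92 for Nos2 in PAT3, -2.53 and -2.08 for Nox1 in PAT1 and -1.49 and -1.15 for Nox1 in PAT3 when any 1 mouse was left out. The female minus male difference of Nox1 kept its direction throughout, but did not pass after quantile normalization (-1.12, limma adjusted p = 0.0525) or in a fit to Control (-0.46, adjusted p = 0.727), PAT1 (-1.48, adjusted p = 0.209) or PAT3 (-1.30, adjusted p = 0.329) alone, which held 7 to 10 mice each. With any 1 mouse left out it lay between -1.22 and -1.01. The correlation of Cybb and Ncf4 was 0.47 after re-centring on the median (permutation adjusted p = 0.0953), and between 0.64 and 0.75 with any 1 mouse left out; the cause was not tested. The count of related genes that passed was 14 in PAT1 and 25 in PAT3 with sample weights, 3 and 6 in females alone and 6 and 12 in males alone, and 8 to 13 and 14 to 17 with any 1 mouse left out. Among the calls lost in females alone were Nox4 and S100a9 in PAT3 (limma adjusted p = 0.108 and 0.138). Ifngr1, Ifngr2, Il1b and Tlr2 were lost there in both treated groups. Among those lost in males alone were Il17a in PAT1 (limma adjusted p = 0.238) and Ifngr2 in PAT3 (limma adjusted p = 0.0548). The methods' test called 73 genes of the panel in PAT1 and 138 in PAT3. No paired analysis was possible because the replicate numbers only count the mice of a group in accession order and link no mice across groups.

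Counting error limits the related genes with few counts, such as Nox3, Camp, Ifng, Il17a and S100a9, with median counts of 3, 6, 8, 9 and 14.5. Litter and cage were not analysed here. The interaction of sex and treatment rested on 3 females in Control and 3 in PAT1.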
